A study of Mus musculus with 36 samples.

Results

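The genes described here are 9 neighbours of Arntl, the gene for the clock factor BMAL1, on mouse chromosome 7: Ric3, Mical2, Micalcl, Tead1, Tmc7, Tmc5, Tmem159, Crym and Abca14. They were taken from the 21654 genes of the deposited table by their place within 10 Mb of Arntl and were chosen by their liver counts, which differed 2-fold or more between Bmal1 knockout and wild-type mice. That difference selected the genes, so its values are given for them as a description, without a test. What the choice did not use is the course of the difference over the day, and the question asked of each gene was whether knockout and wild type were apart by a like amount at every time or by an amount that changed with the clock.

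Liver mRNA was sequenced from 36 C57BL/6 mice in 12 groups of 3, wild type or Bmal1 knockout, killed at Zeitgeber time (ZT, hours after lights on) 0, 4, 8, 12, 16 or 20. All mice lived in 12 h light and 12 h dark with free access to food, were 6.4 to 13.9 weeks old, and by label 9 of the 18 mice of each genotype were female. The title calls the knockout prenatal and the housing text writes it as cKO; a promoter that drives a recombinase, the strain of the cells in which the allele was made and the number of backcrosses are not given in the sources used here. The labels name 20 cages and separate animals, but not which libraries were sequenced together. Library totals were 12657858 to 12839653 counts (median 12744399), and levels are given as reads or as CPM (reads scaled to a common library size, with totals adjusted by the TMM method).

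BMAL1 pairs with CLOCK or NPAS2 and activates genes through E-box sequences such as CACGTG, and REV-ERB and ROR receptors bind AGGTCA elements and set the opposite phase. A gene driven by this loop rises and falls over the day in normal liver and is flat at a high or low level without BMAL1. A knockout allele is also inherited together with the DNA around it, so neighbours of a targeted gene can carry sequence of another origin in knockout mice, whatever the clock does. The labels give no genotype of these neighbours, and neither route was tested here.

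Arntl itself checked the labels in part. In wild type it had 10 to 489 reads per library, with a group mean of 38.9 CPM at ZT20 and 0.997 CPM at ZT8. In knockout it had 182 to 312 reads in every library, between 14.6 and 24 CPM, with no peak. The RNA was therefore still counted in the knockout but no longer followed the day (the difference between genotypes changed with time, edgeR quasi-likelihood F test, adjusted p = 1.5e-09), and reads over the whole gene do not show which part of it was deleted. On the first principal component (32.8% of the variance) the 12 livers of ZT16 and ZT20 had values of 14.2 to 102.5 and the other 24 had -37.2 to -12.5, and the relation of counts to transcript GC content was negative in these 12 and positive in the others. One library, wild-type ZT16 replicate 3, was labelled female and had 4 reads of Xist and 1874 of Ddx3y.

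Of 196 genes in the table within 10 Mb of Arntl, 120 had enough reads to be tested (55 below it, 64 above it and 1 next to it). The genotype difference over all times passed an adjusted p of 0.05 with a 2-fold change in 9 of these 120 genes (7.5%), which are the 9 described, 4 higher and 5 lower in knockout. The same rule was met by 5.2% of all 13201 genes tested (1.94% higher and 3.26% lower), by 4.49% of the 868 on chromosome 7 outside the window and by 5.22% of the 12212 on other chromosomes; since the rule used this contrast, nothing is read from the shares. The median log2 fold change was 0.04 in the window and 0.01 over all genes. Just inside the 2-fold line were Tead1 at -1.09, Mical2 at 1.10 and Abca14 at -1.17, and just outside it were Spon1 at -0.97, Pik3c2a at -0.92 and St5 at 0.84.

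On mm9, the build of the table, the genes formed clusters with gaps between them. Ric3 lay at chr7:116177826-116226845, 4.12 Mb below Arntl (chr7:120350979-120457636). Mical2 (chr7:119369370-119498708) and Micalcl (chr7:119511822-119556617) were 13.1 kb apart, and Tead1 (chr7:119822832-120050319) was the nearest tested neighbour below Arntl. Above it, 22 tested genes came before Tmc7 (chr7:125679357-125728250) and Tmc5 (chr7:125740811-125818600), which were 12.6 kb apart. Of these 22, 11 were called for genotype, with log2 fold changes of -0.97 to 0.46. The share called was 40.8% in the window and 35.7% over all genes. Tmem159 (chr7:127245890-127264506), Crym (chr7:127329894-127345625) and Abca14 (chr7:127347475-127468866) lay 6.79 to 6.89 Mb above Arntl. By the GENCODE M21 strands, Tmc7 and Tmc5 point away from each other, and so do Crym and Abca14, whose starts are 1.9 kb apart.

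Each of these close pairs of unlike strand moved in opposite directions. Tmc7 was lower and Tmc5 higher in knockout, and Crym was higher and Abca14 lower, the last with groups that overlapped at every time. The nearest tested genes outside them changed less: Coq7, 2.5 kb from Tmc7, had a log2 fold change of -0.43, Gde1, 13.5 kb from Tmc5, had -0.19, and Anks4b, 2.7 kb from Crym, had -0.64. Mical2 and Micalcl share a strand and were both higher, as was Parva, 14.4 kb beyond Micalcl (0.59).

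**Figure D1:**
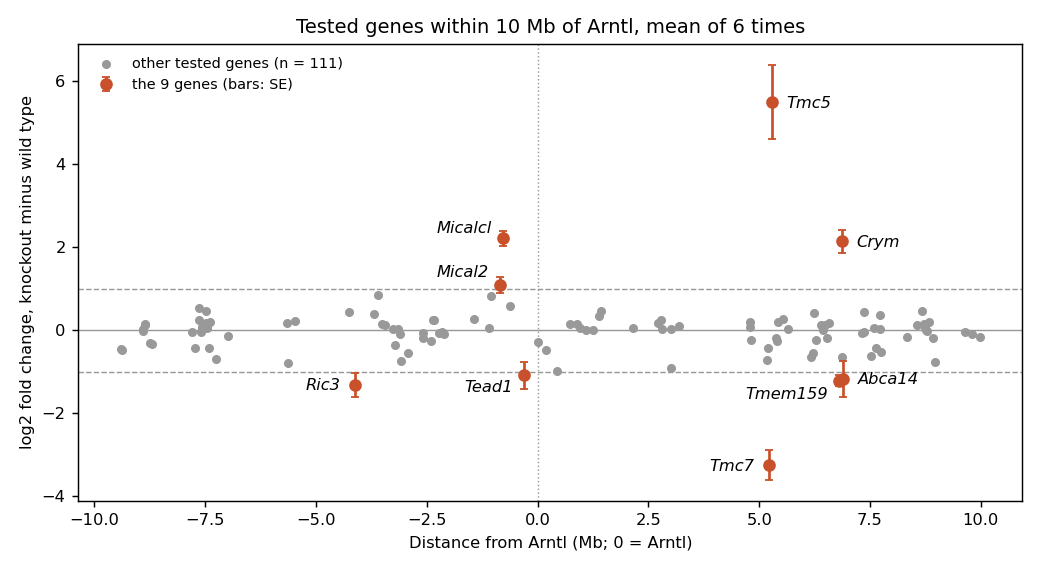
Log2 fold change (knockout minus wild type, mean of 6 times, from 18 libraries a genotype) of the 120 tested genes within 10 Mb of Arntl against their distance from it in Mb; dashed lines mark a 2-fold change. Orange points are the 9 genes with their standard errors, from Tmc7 at -3.25 to Tmc5 at 5.50, and the grey points of the other genes lie between the dashed lines. The value of Tmc5 is a fitted one, not a measured size, since its wild-type groups had no reads at ZT0, ZT4, ZT8 and ZT16.

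The MICAL genes act on the actin skeleton. MICAL2 is a flavin monooxygenase that oxidises actin and takes filaments apart, and Micalcl encodes a relative of the C-terminal part of the MICAL proteins, without the enzyme domain. Their promoters are shown because they matched CACGTG or AGGTCA, among the members with an entry in the RefSeq promoter table (GRCm38.p6, the 250 bases before the start). Both strands were searched for CACGTG, the E-box, which 6.02% of 32851 promoters of this length hold, and for AGGTCA, which 14% hold; the motifs do not overlap, and the capitals mark the matches. The Mical2 stretch is chr7:112225586-112225835 and the Micalcl stretch, before the second of its 2 starts, is chr7:112374607-112374856, both on the plus strand.
Mical2: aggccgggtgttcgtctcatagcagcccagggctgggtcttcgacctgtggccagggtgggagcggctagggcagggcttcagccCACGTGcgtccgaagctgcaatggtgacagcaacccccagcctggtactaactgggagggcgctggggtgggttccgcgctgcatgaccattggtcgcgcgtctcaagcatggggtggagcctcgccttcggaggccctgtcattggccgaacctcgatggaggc
Micalcl: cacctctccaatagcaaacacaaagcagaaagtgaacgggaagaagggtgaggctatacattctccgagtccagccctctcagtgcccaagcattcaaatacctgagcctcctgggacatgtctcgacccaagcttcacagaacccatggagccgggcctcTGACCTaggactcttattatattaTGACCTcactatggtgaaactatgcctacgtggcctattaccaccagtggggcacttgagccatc
The E-box of Mical2 stood 165 to 160 bases before the start. The Micalcl stretch held TGACCT, which is AGGTCA on the other strand, at 89 to 84 and at 65 to 60 bases before the start. Neither motif was found before the other Micalcl start or before Tmc7 and Abca14, the other members in the table. A match is a string of letters and does not show that a factor binds.

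Micalcl was higher in knockout at every time of day, and most at ZT8. Wild-type livers had 2 to 31 reads (median 0.923 CPM, range 0.159 to 2.36) and knockout livers 22 to 100 reads (median 4.12 CPM, range 1.73 to 7.74). At ZT8 the wild-type mice had 0.159, 0.472 and 0.313 CPM and the knockout mice 4.63, 7.74 and 3.75 CPM. At ZT20 they had 1.05, 2.36 and 0.88 against 4.35, 3.5 and 4.62 CPM. The groups did not overlap at 5 of 6 times (18.6% of all genes were apart at 3 or more times). Since the rule used the genotype difference, nothing is read from that count. At ZT0 knockout replicate 2, at 1.73 CPM, fell among the wild-type mice. The log2 fold change over all times was 2.22 ± 0.18 (SE, n = 18 a genotype), from 1.45 at ZT4 to 4.05 at ZT8.

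The wild-type mRNA of Micalcl followed the day and that of the knockout showed no rhythm that passed the test. A 24 h cosine fitted to wild type peaked at ZT21.9 with a 3.13-fold swing (edgeR, adjusted p = 0.0086), lowest as a group mean at ZT8 (0.315 ± 0.157 CPM, SD, n = 3) and highest at ZT20 (1.43 ± 0.809). In knockout the fitted swing was 1.13-fold (adjusted p = 0.9), with group means of 3.73 to 5.37 CPM. The test that the 6 differences were equal gave an adjusted p of 0.16 (edgeR), and the test of the difference between the rhythms an adjusted p of 0.2, so a change of the difference with time was not established. By DESeq2, the 6 differences were unequal (adjusted p = 0.028). The wild-type rhythm was not called without the libraries of ZT16 and ZT20 (adjusted p = 0.083) or in males (0.078) or females (0.23) alone.

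Mical2 was higher in knockout at ZT4, ZT8 and ZT12 and near the wild-type level at ZT16. A change of its difference with time was not established. Wild-type livers ranged from 4.75 to 33 CPM (median 14.2) and knockout livers from 10 to 53.6 (median 37). At ZT8 the wild-type mice had 7.22, 12.8 and 9.87 CPM and the knockout mice 41.7, 47.3 and 43.4 CPM. At ZT16 the values were 5.4, 21.3 and 14.9 in wild type and 10, 14.5 and 21.7 in knockout. The groups were fully apart at ZT4, ZT8 and ZT12 and overlapped at the other times. Groups were apart at 3 or more times in 18.6% of all genes. Since the rule used the genotype difference, nothing is read from the times apart. The log2 fold change of Mical2 was 1.10 ± 0.19 over all times. It was 0.5 at ZT0 (95% interval -0.4 to 1.4), 2.16 at ZT8 (1.2 to 3.11) and 0.16 at ZT16 (-0.77 to 1.1).

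A rhythm of Mical2 was called in each genotype, and the difference between the rhythms was not. Wild type peaked at ZT23.9 with a 2.32-fold swing (adjusted p = 0.032) and knockout at ZT6.08 with a 2.5-fold swing (adjusted p = 0.045). That difference had an adjusted p of 0.23, and equality of the 6 differences one of 0.34. Without the libraries of ZT16 and ZT20, which stand apart in GC content, the adjusted p of the knockout rhythm was 0.78, and with the GC trend of each library removed it was 0.12. It was not called in females alone (0.64) or with no filter on low counts (0.061), nor was the wild-type rhythm in males (0.071) or females (0.42) alone. The wild-type rhythm was lost without wild-type ZT0 replicate 1, 2 or 3, ZT8 replicate 3 or ZT12 replicate 3 (adjusted p from 0.0098 to 0.086 over all 36 libraries left out in turn). The knockout rhythm was lost without any one of 10 libraries: wild-type ZT8 replicate 2, all 3 knockout mice of ZT16, replicates 2 and 3 of knockout ZT8 and ZT20, and replicate 2 of knockout ZT0 and ZT4 (0.021 to 0.12). With all libraries of ZT16 and ZT20 left out, the 4 remaining differences of Mical2 were unequal (adjusted p = 0.0099), as were the rhythms (0.0037).

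Reads of this pair may not be cleanly divided. The gene ID of Micalcl is absent from GENCODE M21, in which Mical2 spans 187251 bases against 129339 in the deposited table, on the same strand. Of the 4 other MICAL genes tested, Mical1 was lower in knockout (-0.48 ± 0.16, edgeR adjusted p under 0.05) and the others were not called. Their median log2 fold change was -0.31, beside 0.01 for all genes, of which 35.7% were called.

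TEAD1 is the DNA-binding partner of the Hippo pathway coactivators YAP and TAZ. Its mRNA was lower in knockout with wide scatter, from 0 to 6.54 CPM in wild type (median 3.53) and from 0 to 5.71 in knockout (median 1.3). At ZT8 the wild-type mice had 3.09, 3.46 and 3.6 CPM and the knockout mice 0.568, 0.697 and 1.53. At ZT0 the knockout mice had 0.723, 1.02 and 5.71 CPM, the last of them above the wild-type values of 4.16, 4.26 and 4.14. All 18 knockout values lay inside the wild-type range. The groups were apart at 2 of 6 times, and with 3 mice a group nothing is read from that count. The log2 fold change was -1.09 ± 0.32 over all times and -1.97 to -0.70 by time.

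By label, the Tead1 difference was larger in males than in females, a split that was not established. Knockout males had 0 to 1.44 CPM (median 0.697) and knockout females 0.94 to 5.71 (median 2.43), while wild-type males had 0.19 to 4.73 (median 3.46) and wild-type females 0 to 6.54 (median 3.89). Fitted in males alone the log2 fold change was -2.46, and in females alone -0.09. The sex-by-genotype term of Tead1, a test added after the data were seen, was 2.12 ± 0.53. Its adjusted p was 0.16 (edgeR), so it did not pass over all genes. The wild-type females include ZT16 replicate 3, whose reads went against its label. Sizes also differed for Mical2 (0.57 in males alone and 1.53 in females alone) and Tmc7 (-4.3 and -2.51), and were alike for Tmem159 (-1.23 and -1.29). Among 16 other TEAD and Hippo genes tested, 3 fell (Axl by 0.75, Vgll4 by 0.29 and Sav1 by 0.18 on the log2 scale), none rose, and the median was -0.03. Over all genes 35.7% were called for genotype.

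RIC3 is a chaperone of the endoplasmic reticulum that helps nicotinic acetylcholine receptors assemble. It was counted at 4 to 22 reads in wild type (median 0.845 CPM) and at 0 to 14 reads in knockout (median 0.208 CPM). At ZT8 wild-type mice had 12, 8 and 5 reads and knockout mice 1, 3 and 2, while at ZT16 they had 15, 4 and 4 against 2, 2 and 14. The groups did not overlap at 2 of 6 times, a count of 3 against 3 mice from which nothing is read. Its log2 fold change was -1.32 ± 0.29, from -1.98 at ZT8 to -0.58 at ZT16, and neither genotype had a rhythm that passed (adjusted p = 0.63 in wild type and 0.76 in knockout). Of 5 nicotinic receptor genes tested, Chrna4 fell by 2.54 on the log2 scale and Chrnb2 rose by 0.80, with a median of -0.45 over the 5. Genotype was called in 35.7% of all genes.

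Tmc7 and Tmc5 belong to the transmembrane channel-like family, whose best-known members carry the mechanical current of inner ear hair cells. Tmc7 was lower in knockout, with 14 of 18 knockout livers below all wild-type livers. The share of all genes with such a split is not given here, and the rule used the genotype difference. Nothing is read from that count. Wild-type mice had 8 to 138 reads (median 4.18 CPM) and knockout mice 0 to 40 reads (median 0.296 CPM). At ZT12 wild-type mice had 10.1, 10.5 and 6.8 CPM and knockout mice 0.385, 0.528 and 0.24; at ZT16 they had 3.22, 4.39 and 6.82 against 0.184, 0 and 0.225. At ZT20 the groups overlapped, with 2.26, 4.79 and 0.88 CPM in wild type and 0.6, 0.277 and 3.13 in knockout. The log2 fold change was -3.25 ± 0.36 over all times, from -5.09 at ZT16 to -0.81 at ZT20.

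The wild-type level of Tmc7 was highest at ZT12 (9.14 ± 2.03 CPM, SD, n = 3) and lowest at ZT20 (2.65 ± 1.98). The cosine fit put its peak at ZT12 with a 3.41-fold swing and an adjusted p of 0.047 (edgeR), a call that was lost without any one of 14 of the 36 libraries, wild-type ZT0 replicate 1, wild-type ZT4 replicates 1 and 2, wild-type ZT8 replicate 3, wild-type ZT12 replicates 1, 2 and 3, wild-type ZT16 replicate 3, wild-type ZT20 replicates 1 and 3, knockout ZT4 replicates 2 and 3, knockout ZT8 replicate 2 and knockout ZT12 replicate 2 (adjusted p from 0.0066 to 0.12), and that DESeq2 did not make (0.15). In knockout no rhythm passed (adjusted p = 0.77). Equality of the 6 differences had an adjusted p of 0.36.

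Tmc5 was counted in all knockout livers and in few wild-type livers. Knockout mice had 4 to 94 reads (median 16, 1.32 CPM). Of 18 wild-type mice 14 had no read, 2 had 1 read, and the remaining 2 had 27 reads (ZT12 replicate 1) and 18 reads (ZT20 replicate 3). At ZT4 the knockout mice had 35, 7 and 94 reads and all 3 wild-type mice 0. Against a floor of 3 reads over the wild-type group, knockout was at least 28.9-fold higher at ZT0, 49.8-fold at ZT4, 19.2-fold at ZT8 and 14.8-fold at ZT16; these bounds cover counting error only. At ZT12 and ZT20, the times of the 2 high wild-type mice, the fitted log2 fold changes were 0.92 (95% interval -1.65 to 3.5) and 1.48 (-1.23 to 4.19).

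No rhythm of Tmc5 passed in either genotype (adjusted p = 0.13 in wild type and 0.44 in knockout), and equality of the 6 differences had an adjusted p of 0.49. In wild type the fit turned on 2 mice: without ZT12 replicate 1 the adjusted p was 0.01 and without ZT20 replicate 3 it was 0.0039, each leaving 1 mouse with more than 1 read. DESeq2 also called this wild-type rhythm (adjusted p = 0.046). Fits of each sex alone cannot decide it, since each rests on 1 mouse. By label, ZT12 replicate 1 (27 reads) was the only wild-type male with more than 1 read. ZT20 replicate 3 (18 reads) was the only such wild-type female. Without ZT20 replicate 3 the rhythms of wild type and knockout also differed (adjusted p = 0.022). The 4 other family members tested held 1 call, Tmc6 at -0.66 ± 0.14, beside 35.7% of all genes called, and their median was -0.46.

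TMEM159, also named LDAF1 or promethin, works with seipin where lipid droplets form. Tmem159 was lower in knockout at each of the 6 times. Wild-type mice had 21 to 46 reads (1.63 to 3.72 CPM, median 2.36) and knockout mice 6 to 27 reads (0.473 to 2.11 CPM, median 0.99). At ZT8 the wild-type mice had 2.22, 1.81 and 2.43 CPM and the knockout mice 0.649, 0.697 and 0.843; at ZT20 they had 3.72, 3.12 and 3.25 against 1.13, 0.553 and 2.11. Tmem159 was the member whose groups were apart at all 6 times, which 1.49% of all genes were. The rule used the genotype difference, so nothing is read from that count. The log2 fold change of Tmem159 was -1.22 ± 0.13, between -1.55 at ZT8 and -0.77 at ZT16, with all 6 intervals below 0.

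The range of 0.78 between those times was the smallest among the 9 genes, beside a median of 0.66 over all genes and of 2.16 over the 9. Equality of the 6 differences had an adjusted p of 0.93, and no rhythm passed in wild type (1.38-fold, adjusted p = 0.24) or knockout (1.35-fold, adjusted p = 0.41). Males alone gave a log2 fold change of -1.23 and females alone -1.29. In a list of 10 other lipid droplet genes, 2 rose (Bscl2, which encodes seipin, by 0.29, and Plin5 by 0.32). From the same list 3 fell (Fitm1 by 1.34, Cidec by 1.16 and Fitm2 by 0.28 on the log2 scale), with a median of -0.04 over the 10. Calls for genotype covered 35.7% of all genes.

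Crym encodes mu-crystallin, which binds thyroid hormone in the cytosol. Crym was higher in knockout, at 31 to 141 reads (2.37 to 10.9 CPM, median 5.63), than in most wild-type mice. In wild type 15 of 18 mice had 5 to 22 reads, and 3 mice had 90 (ZT12 replicate 1), 100 (ZT20 replicate 1) and 52 reads (ZT20 replicate 3), inside the knockout range. At ZT16 wild-type mice had 0.853, 0.638 and 0.371 CPM and knockout mice 3.12, 5.41 and 7.94. The groups did not overlap at ZT0, ZT4, ZT8 and ZT16 and overlapped at ZT12 and ZT20, where the 3 high wild-type mice fell. Groups were apart at 3 or more times in 18.6% of all genes. The rule used the genotype difference, so nothing is read from the times apart. Over all times the log2 fold change was 2.14 ± 0.28, from 3.13 at ZT16 to 0.48 at ZT20.

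No rhythm of Crym passed in wild type (adjusted p = 0.13) or knockout (0.96), and equality of the 6 differences had an adjusted p of 0.45. The fit of females alone cannot decide that equality, since its wild-type ZT16 group is 1 mouse, replicate 3. The wild-type rhythm was called without ZT12 replicate 1 (adjusted p = 0.042) or without ZT16 replicate 3 (0.038), the mouse whose reads went against its sex label. Of 12 other thyroid hormone genes tested, 3 rose, among them the receptor gene Thra by 0.74 and the transporter gene Slc16a10 by 0.53. Another 3 fell (the hormone-responsive genes Thrsp by 2.74, Dio1 by 2.31 and Me1 by 0.88 on the log2 scale). The median of the 12 was -0.07, and 35.7% of all genes were called.

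Abca14 belongs to the ABCA family, many of whose members move lipids across membranes. It had 0 to 24 reads in wild type (median 3.5) and 0 to 7 in knockout (median 1.5), counts at which a single read moves the level. At ZT4 wild-type mice had 2, 3 and 24 reads and knockout mice 1, 2 and 3, and at ZT12 they had 4, 0 and 1 against 1, 4 and 0. The groups overlapped at every time, and no interval of the 6 differences excluded 0. The log2 fold change over all times was -1.17 ± 0.44, and it was -2.80 in males alone. In females the median was 0.159 CPM in wild type and 0.15 in knockout, and Abca14 did not pass the filter for a fit of females alone; the sex-by-genotype term had an adjusted p of 0.49 (edgeR). Of 9 other Abca genes tested, 3 rose and 3 fell, within -0.63 to 0.64, beside 35.7% of all genes called.

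**Figure D2:**
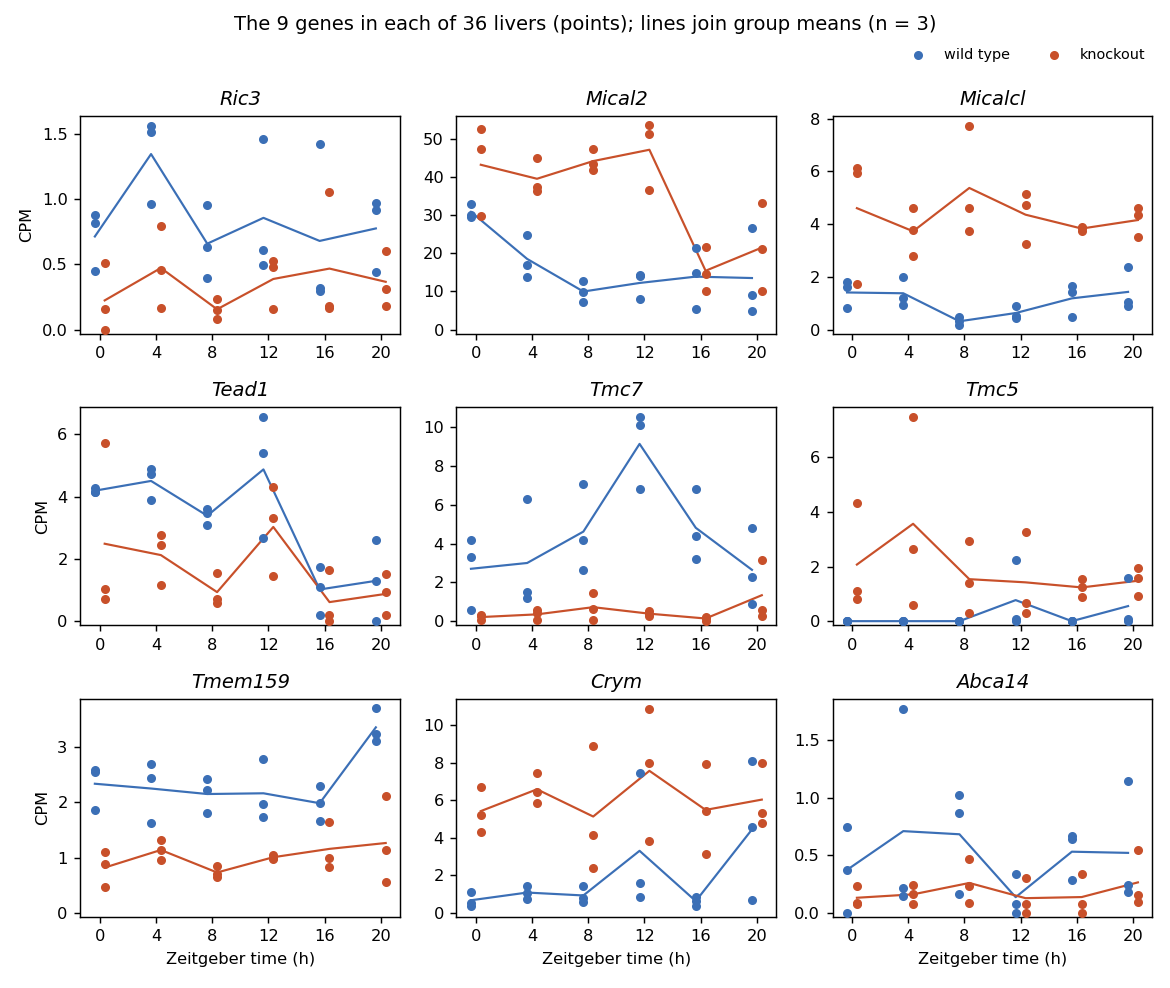
CPM of the 9 genes (linear axes, one panel a gene) in each of 36 livers against Zeitgeber time in hours; points are mice, blue for wild type and orange for knockout, and lines join the means of 3 mice. Tmem159 is apart at all 6 times, Micalcl is lowest in wild type at ZT8, and single wild-type mice at ZT12 and ZT20 reach the knockout levels of Tmc5 and Crym.

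A few mice stood against their own genotype at several of the genes above Arntl; these mice were picked after their values were seen. Wild-type ZT12 replicate 1 had 27 reads of Tmc5 and 90 of Crym, as knockout mice have, but 122 of Tmc7, as wild-type mice have. Wild-type ZT20 replicate 3 had 18 reads of Tmc5, 52 of Crym and 10 of Tmc7, nearer the knockout at all 3 genes. It had 37 reads of Tmem159, at the wild-type level. Its library stood at 82.8 on the first principal component, among those of ZT16 and ZT20 that stand apart. Few Tmc7 reads were also seen in wild-type ZT0 replicate 1 (8), with 0 of Tmc5 and 7 of Crym. Wild-type ZT20 replicate 1 had 100 reads of Crym and 0 of Tmc5. Knockout ZT20 replicate 3 had 40 reads of Tmc7 and 27 of Tmem159, the highest of any knockout mouse, but 20 of Tmc5 and 102 of Crym.

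**Figure D3:**
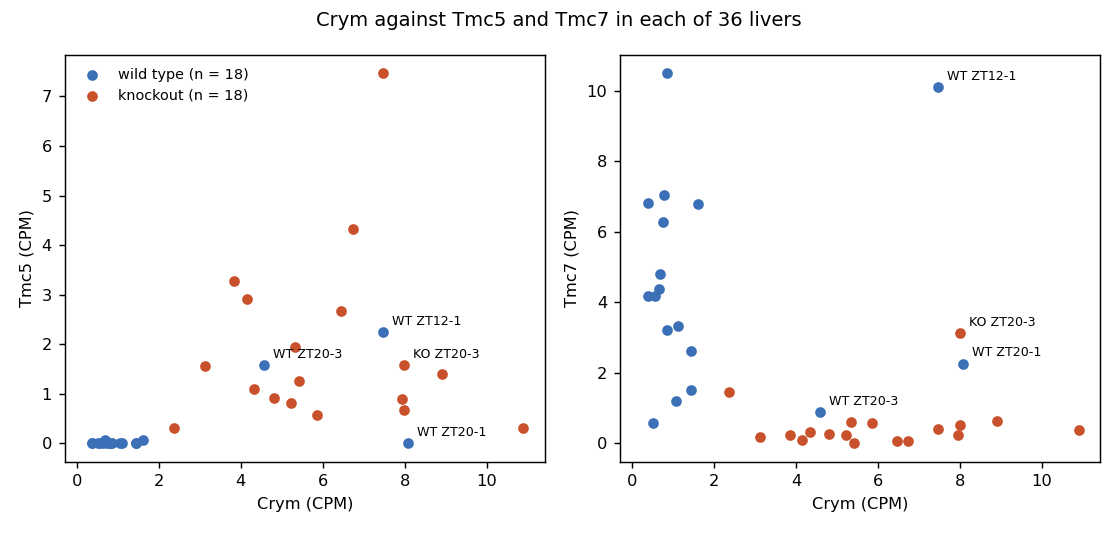
Tmc5 (left) and Tmc7 (right) against Crym in each of 36 livers, in CPM on linear axes; blue points are wild type and orange points knockout (n = 18 each). The 4 labelled mice lie with the other genotype for at least 1 of these genes: 3 wild-type mice have Crym at 4.57 to 8.08 CPM, and 1 knockout mouse has Tmc7 at 3.13 CPM.

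Across the 9 genes, a change of the genotype difference with time was not established for any member. The test that the 6 differences are equal called 0 of 9, with adjusted p from 0.16 to 0.99 (edgeR), while it called 1.67% of all genes; 4 of 9 members and 10.3% of all genes had an unadjusted p under 0.05. DESeq2 called 1 member, Micalcl. The same test called 6 of 7 clock genes, Arntl, Npas2 (adjusted p = 1e-10), Dbp (4.9e-12), Cry1 (1e-06), Per3 (1.3e-07) and Nr1d1 (0.0044), but not Bhlhe41 (0.85), which fell at every time. For 8 of 9 members all 6 differences had 1 sign, beside 28.9% of all genes, and Abca14 was the exception at ZT12. The rule used the mean of these 6 differences, which favours a shared sign, so nothing is read from that count.

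An uncalled difference is not an equal one. The differences of the 9 genes ranged over 0.78 to 7.65 log2 units between times. The range of 7.65 was that of Tmc5. Its wild-type groups had no reads at ZT0, ZT4, ZT8 and ZT16, so the size of its differences there was not measured. The difference of Dbp, whose wild-type level crosses that of the knockout, ran from -5.73 at ZT8 to 2.58 at ZT0, while that of Cry1, which like Micalcl was higher in knockout at every time, ran from 0.78 to 3.20. The spread of log2 CPM within groups, with 0.1 CPM added, was 0.42 for Tmem159, 0.61 for Micalcl and 0.68 for Mical2, and 0.83 to 1.29 for the other 6 genes.

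**Figure D4:**
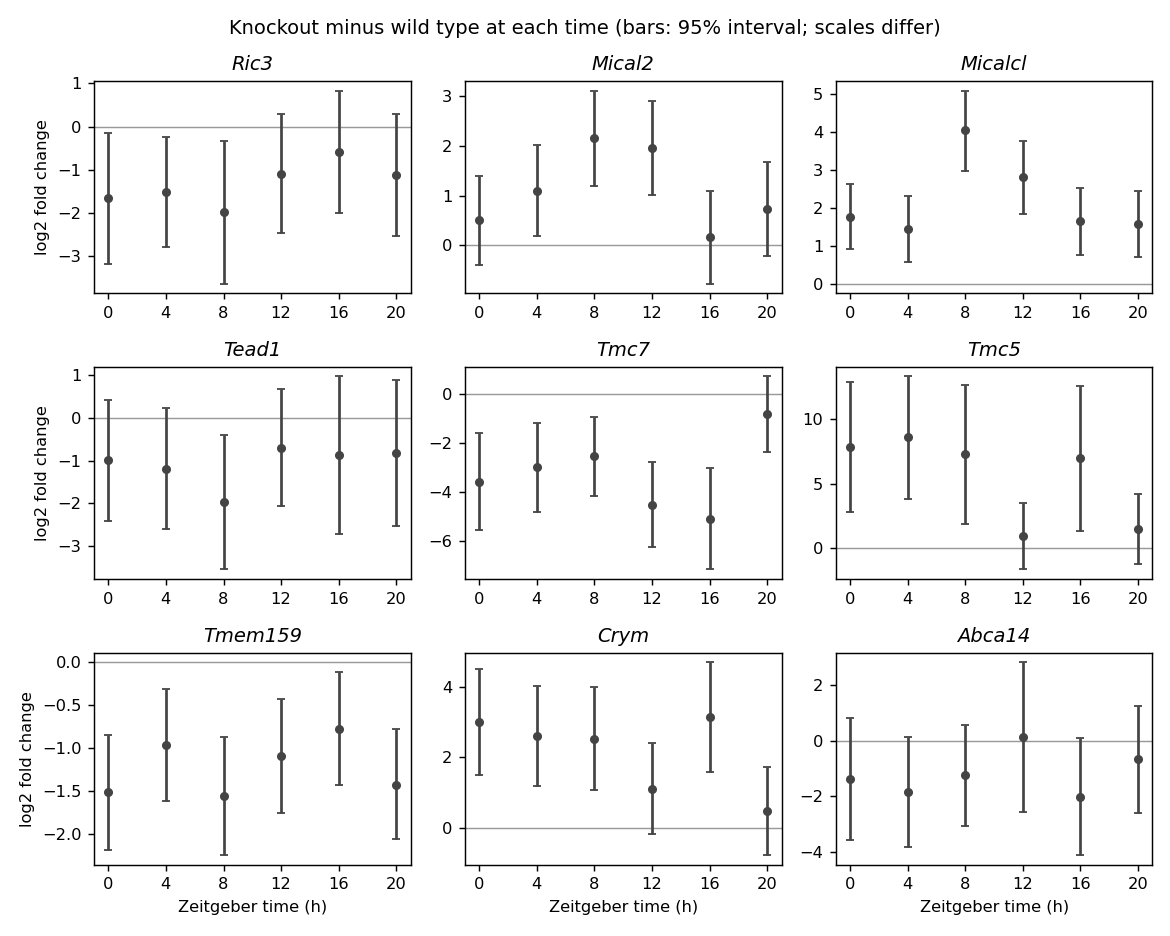
Log2 fold change (knockout minus wild type) of the 9 genes at each Zeitgeber time in hours, with 95% intervals (3 mice a group, spread estimated over all groups; vertical scales differ between panels). Micalcl is above 0 at all 6 times with its highest value at ZT8 (4.05), Tmem159 is below 0 at all 6 times, and the intervals of Tmc5 are the widest.

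Rhythm tests over 24 h called 3 of 9 members in wild type (Micalcl, Mical2 and Tmc7), beside 56.4% of all genes, and 1 of 9 in knockout (Mical2), beside 48.3%. The difference of the rhythms called 0 of 9 and 2.23% of all genes, with 3 of 9 at an unadjusted p under 0.05 (Micalcl, Mical2 and Tmc5). Tead1 reached its lowest group mean at ZT16 in both genotypes (1.02 and 0.61 CPM), a time of libraries that stand apart, and its fitted peaks were at ZT5.52 and ZT5.76; neither rhythm passed (adjusted p = 0.093 and 0.52). Sex called 0 of 9 over both genotypes, beside 13.4% of all genes, with 3 of 9 at an unadjusted p under 0.05, and DESeq2 called Tead1 (0.039) and Abca14 (0.049). The interaction of sex and genotype called 0 of 9 and 0.0985% of all genes, with 5 of 9 at an unadjusted p under 0.05. For the difference of the rhythms, sex and this interaction, the share of all genes at that unadjusted threshold is not given here. Nothing is read from those unadjusted counts.

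In 5 cages a knockout and a wild-type mouse, by label of the same sex and age, were taken at the same time; the pair of ZT16 holds the wild-type mouse whose reads go against its label. Knockout was higher in all 5 pairs for Micalcl, Tmc5 and Crym and lower in all 5 for Tmc7 and Tmem159. Mical2 was higher in 4 of 5, Abca14 lower in 4 of 5 by CPM, and Ric3 and Tead1 lower in 3 of 5. In 1 of those 4 pairs of Abca14, with wild-type ZT20 replicate 3, both mice had 2 reads. These mice are among those whose difference chose the genes, so the directions are a description.

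Likeness was measured as Pearson's r of the 12 group means of log2 CPM, over tested genes whose log2 CPM averaged 1 or more; it is a description, since the means share libraries and the split by genotype. Micalcl was most like Npnt (r = 0.979) and Dcdc2a (0.972), and Mical2 most like Gldc (0.984) and Sh3pxd2a (0.972). Tmem159 was most like Me1 (0.97) and Sh2d4a (0.964), and Tmc7 most like Galk1 (0.953) and Cxcl12 (0.944). Tmc5 was most like Ntrk2 (0.98) and then Crym (0.959), and Ntrk2 was also first for Crym (0.941). Tead1 was nearest to Ucp2 (0.964), Ric3 to H2-T10 (0.956) and Abca14 to Stk38 (0.845). Apart from Crym and Ucp2, which are on chromosome 7, these genes are on other chromosomes.

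In bulk liver, fewer cells of a type and less RNA per cell cannot be told apart. Hepatocyte markers were abundant in every library (summed CPM 14700 to 48700 in wild type and 16800 to 38000 in knockout) and none of 4 was called. All 5 macrophage markers were lower in knockout (summed CPM 54.9 to 226 against 39.4 to 174), with 2 of 7 stellate, 2 of 5 endothelial and 1 of 5 cholangiocyte markers; Sox9, on the cholangiocyte list, rose by 1.35 and Cela1, on the pancreas list, by 0.91. For comparison, 35.7% of all genes were called for genotype. The part of these cell types in the levels of the 9 genes was not tested. Skeletal muscle markers were at or near 0, with a summed CPM of at most 0.0742 in wild type and 0.392 in knockout. All 9 genes passed the filter on low counts over all groups; Tmc5 would not have passed on wild type alone, nor Ric3, Tmc7 and Abca14 on knockout alone, so these passed through the genotype in which they are higher.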

How the data were processed

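Stranded mRNA libraries of 36 mouse livers were compared. Per the submitters' processing notes, STAR 2.4.0f1, CASAVA and mm9 were used; the counting program, annotation and filters are not given in the sources used here. The deposited counts are whole-number reads per gene, in a table marked as minimum sense-strand counts, and totals differ by at most 1.44%; the step behind this is not given either. No columns were left out.

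The 9 genes and all lists were chosen with earlier results of these data known. Counts were fitted with edgeR 4.0.16 (R 4.3.3): TMM scaling, filterByExpr on the 12 groups (minimum count 10, minimum total 15), 13201 genes tested, quasi-likelihood F tests on 12 group means with labelled sex, or on genotype, sex and a cosine and sine of a 24 h period per genotype. Fold changes are log2, knockout minus wild type, with the standard error from the F statistic; adjusted p values are Benjamini-Hochberg over all tested genes, called under 0.05. CPM values are given as mean ± SD or single livers. A cosine over 6 times of 1 day also takes up other changes between times of similar course. Cage entered no fit. Named genes were the 9, Arntl, 6 clock genes, 3 genes on each side of the 2-fold line, adjacent tested genes, the 2 most alike in group means, and up to 3 per list by p; further called thyroid hormone and lipid droplet genes were named after their values were seen, and 1 is not reported here. Alternatives were DESeq2 size factors, DESeq2 1.42.0, no filter, a minimum mean of 1 CPM, no sex term, age, each sex alone, leaving out ZT16 and ZT20 or each library; removing each library's GC trend and the sex-by-genotype test were added after the data were seen. The scripts were tested on simulated data.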

Additional observations from a re-analysis of the deposited data

How the results depend on the processing

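No fit paired the mice: the labels give no replicate numbers, and cage, shared by a knockout and a wild-type mouse of 1 time in 5 pairs, was used in no fit. Of 2932 recomputed values, 2801 kept direction, call and size, 58 moved, 43 lost and 30 gained a call, and 0 reversed. Genes called for genotype were 4711, 1959 in males alone, 2338 in females alone and 4416 to 5235 with 1 library left out. For unequal differences over time, 221 genes became 454 without ZT16 and ZT20, 9 in males, 140 in females, 493 by DESeq2 and 180 to 372 with 1 library left out (highest without wild-type ZT16 replicate 1); members called went from 0 to 1 without ZT16 and ZT20 (Mical2), 1 in females (Crym), 1 by DESeq2 (Micalcl) and stayed at 0 to 0 with 1 library left out. For the wild-type rhythm, 7451 genes became 2113 without ZT16 and ZT20, 2452 in males, 4353 in females and 6458 to 7542 with 1 library left out; members went from 3 to 1 in males and 1 to 4 with 1 library left out (1 without wild-type ZT0 replicate 1, ZT8 replicate 3 or ZT12 replicate 3). For the knockout rhythm, 6382 genes became 94 without ZT16 and ZT20, 4196 in males, 941 in females, 3391 with the GC trend removed and 5326 to 6806 with 1 library left out; members went from 1 to 0 with no filter, without ZT16 and ZT20, in females and with the GC trend removed, and 0 to 1 with 1 library left out. For the difference of rhythms, 294 genes became 468 without ZT16 and ZT20, 73 in males, 44 in females, 500 by DESeq2 and 246 to 392 with 1 library left out; members went from 0 to 1 without ZT16 and ZT20 (Mical2) and 0 to 1 with 1 library left out (Tmc5, without wild-type ZT20 replicate 3). For sex, 1775 genes became 1220 to 2140 with 1 library left out; members went from 0 to 1 with DESeq2 size factors, 2 without ZT16 and ZT20, 2 by DESeq2, 1 with the GC trend removed and 0 to 2 with 1 library left out (1 without wild-type ZT16 replicate 3, which goes against its label, and 2 without wild-type ZT16 replicate 1). The cause of these moves was not tested, apart from the smaller number of libraries where some are left out. Micalcl has no GC value, so its GC alternative was not run. Few reads limit Abca14, Ric3 and wild-type Tmc5. Sex alone was not run for the comparison of the sexes. Fits of 1 sex leave 1 or 2 mice a group, and the female wild-type group of ZT16 holds only the mouse that goes against its label.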
